A study of Homo sapiens with 12 samples.

Results

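The protocadherins, the largest family of cadherin-like adhesion receptors, were followed in U2OS cells, a human osteosarcoma line, after induction of E2F1 or of E2F1 with altered methylation sites. Of the 25369 gene symbols in the count data, 66 were protocadherins, taken as the symbols made of PCDH, any letters, and a number. They comprised 55 clustered genes (15 PCDHA, 18 PCDHB, and 22 PCDHG) and 11 genes outside the clusters. A further 7 symbols with the same stem, such as antisense RNAs and pseudogenes with a suffix, did not follow that form and were left out. In the GENCODE annotation, PCDHB17 and PCDHB18 are transcribed pseudogenes.

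RNA was sequenced from 4 stable Tet-On lines, in which doxycycline switches on the construct that was selected with hygromycin B. The pTRE line carried the empty vector, the WT line HA-tagged wild-type E2F1, the R109K line HA-tagged E2F1 with lysine in place of the arginine methylated by PRMT1, and the KK line HA-tagged R111/113K E2F1, which lacks the arginines methylated by PRMT5. Every line, pTRE included, had 1 ug/ml doxycycline for 24 h, and each had 3 biological replicates. The replicates belong to 1 line for each construct, so a difference between lines and a difference between constructs cannot be told apart. All 3 E2F1 lines were compared with the same 3 pTRE libraries.

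Clustered protocadherins lie in 3 neighbouring arrays on the long arm of chromosome 5 and are best known from neurons. Each variable exon of the PCDHA and PCDHG arrays has a promoter of its own and encodes the extracellular cadherin repeats, the membrane span, and a short intracellular stretch, and is then spliced to constant exons that all members of that array share. PCDHB genes have no shared constant exons. Neurons choose small, largely random combinations of the variable exons, and proteins that match in identity bind each other across cell contacts, which is how sister branches of one neuron recognise and avoid each other. The promoters are known to be active when CTCF and cohesin join them to distant enhancers, and to be silent when methylated. The last variable exons of the PCDHA and PCDHG arrays, the C-types PCDHAC1, PCDHAC2, PCDHGC3, PCDHGC4, and PCDHGC5, are used more constantly and are regulated apart. The protocadherins outside the clusters each have a gene of their own, and most belong to the delta group, which binds weakly by itself and often acts with classical cadherins and the actin cytoskeleton.

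In GRCh37 (hg19), the build of the alignment, the PCDHA genes span positions 140165721 to 140391932 of chromosome 5, the PCDHB genes 140430959 to 140628933, and the PCDHG genes 140710081 to 140892544, all on the plus strand. Exon bases shared with another gene, the constant exons among them, came to between 2866 and 3431 for each PCDHA gene in the GENCODE annotation. For PCDHG genes they came to between 2177 and 4443. The highest values belonged to PCDHA2 and PCDHA3 (3431) and to PCDHGA8 and PCDHGB4 (4443). Reads there belong to several genes and were not counted for any of them, so the values describe the variable exon of each gene. Related variable exons also share sequence. For PCDHB8, 45.5% of all 50-base windows recur in another protocadherin, against 33.2% for PCDHA6, 31.6% for PCDHB10, and 12.3% for PCDHB5, and reads without a unique position, between 8.59% and 9.60% of each library, were not counted.

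Clustered protocadherin promoters are known for a conserved element around a core of CGCT letters, the CGCT box, where CTCF binds close to the start of transcription. RefSeq promoter windows in GRCh38.p14, from 250 bases before the annotated start to 50 bases after it, were given for 56 of the 66 protocadherins. 3 sets of 44 bases around CGCT letters are shown, on the plus strand, 5′ to 3′, with those letters in capitals. Only these letters were matched, and they occur somewhere in the window of 57.7% of all genes with one. Box stands below for such a match, and whether a given match is the conserved element was not tested. The first set holds genes whose RNA was called lower in E2F1 lines, as described further on.
PCDHA4 (chr5:140806975-140807018): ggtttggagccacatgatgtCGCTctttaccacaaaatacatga
PCDHA11 (chr5:140868879-140868922): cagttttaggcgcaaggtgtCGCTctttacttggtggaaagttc
PCDHA12 (chr5:140875240-140875283): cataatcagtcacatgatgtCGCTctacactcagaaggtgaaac
PCDHB12 (chr5:141208639-141208682): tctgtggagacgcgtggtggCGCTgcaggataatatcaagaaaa
PCDHB13 (chr5:141213861-141213904): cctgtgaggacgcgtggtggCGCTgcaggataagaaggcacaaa
PCDHB14 (chr5:141223259-141223302): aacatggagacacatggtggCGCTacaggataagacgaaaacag
PCDHGB1 (chr5:141350021-141350064): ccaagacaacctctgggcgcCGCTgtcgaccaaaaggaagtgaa
The second set holds neighbours of the same arrays that were not called lower in any line.
PCDHA6 (chr5:140827893-140827936): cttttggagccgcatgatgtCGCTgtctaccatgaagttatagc
PCDHA7 (chr5:140834168-140834211): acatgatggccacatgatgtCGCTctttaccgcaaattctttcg
PCDHB2 (chr5:141094540-141094583): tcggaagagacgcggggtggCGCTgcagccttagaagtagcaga
PCDHB16 (chr5:141182306-141182349): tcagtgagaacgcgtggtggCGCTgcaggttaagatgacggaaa
PCDHGB4 (chr5:141387613-141387656): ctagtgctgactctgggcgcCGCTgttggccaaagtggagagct
The third set holds C-type genes.
PCDHAC1 (chr5:140926216-140926259): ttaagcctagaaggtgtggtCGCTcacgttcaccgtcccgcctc
PCDHAC2 (chr5:140966415-140966458): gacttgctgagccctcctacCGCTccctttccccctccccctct
PCDHGC3 (chr5:141475876-141475919): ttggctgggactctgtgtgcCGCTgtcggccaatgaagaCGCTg
PCDHGC4 (chr5:141484948-141484991): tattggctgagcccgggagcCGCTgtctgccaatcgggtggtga

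Letters next to the box were counted for the PCDHB array. The string GTGGCGCT, which contains the box and was chosen after the sequences were seen, occurred on either strand in 13 of 14 PCDHB windows (92.9%), in none of the PCDHA and PCDHG windows, and in 1.38% of 27305 genes with a promoter window. A CGCT box on the strand of the gene began between 90 and 30 bases before the start in 37 of 42 clustered genes other than the C-types and PCDHB1 (88.1%), against 22.7% of all genes. PCDHB5 and PCDHB8 were among the exceptions, and there the box lay nearer to the start or just after it. In the whole window, 41 of the 42 genes held the letters (97.6%), against 57.7% of all genes. The range from 90 to 30 bases was not part of the plan for these counts. All 5 genes with a window among the C-types and PCDHB1 held the letters in that range as well (100%). Among the 9 protocadherins outside the clusters with a window, 3 held the box in that range, among them PCDH18. The box lay in that range in 13 of 15 clustered genes that were called lower in at least 1 line (86.7%). Among those tested and not called, it lay there in 24 of 27 (88.9%). Some uncalled genes, such as PCDHB2 and PCDHA6, were also lower in E2F1 lines, by less than 2-fold. As most clustered genes held the box, these shares can say little, and the part of the box in the decrease was not tested. An E2F consensus (TTTCCCGC, TTTCGCGC, TTTGCCGC, or TTTGGCGC, on either strand) was present in 1 of the 56 protocadherins, PCDHA9, and in 3.99% of all genes. A match of letters is a description of the window and no evidence of binding.

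**Figure D1:**
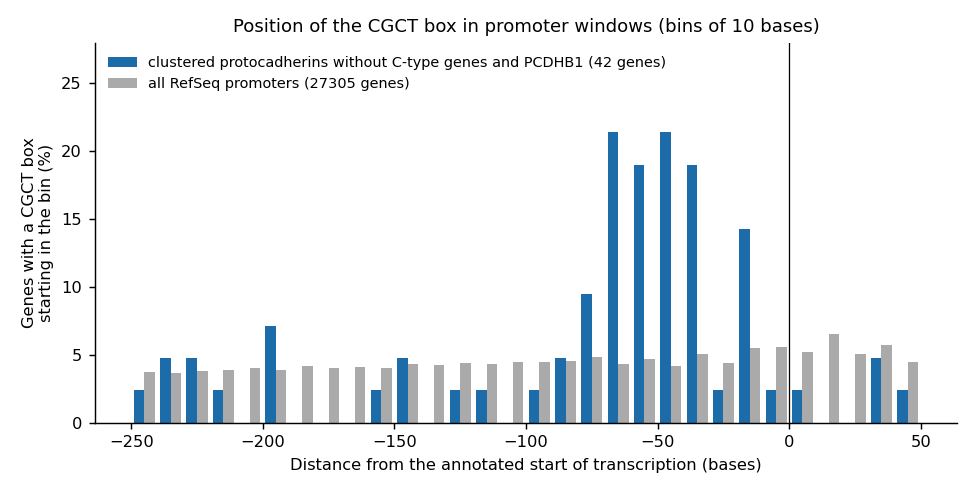
Share of genes (y axis, %) whose CGCT box on the strand of the gene starts in each bin of 10 bases (x axis, distance from the annotated start in bases), for 42 clustered protocadherins without the C-types and PCDHB1 (blue) and for 27305 genes with a RefSeq promoter (grey). Clustered genes pile up between 90 and 30 bases before the start, where 88.1% held a box, while the grey bars stay nearly level.

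Depth allowed low levels to be read. Reads counted on genes ranged from 11500537 in WT replicate 2 to 31040903, and 58.7% of the reads of WT replicate 2 fell outside annotated genes against 23.6% to 29.6% in the other libraries. Protocadherins took between 2472 and 7887 reads per library. Levels are given as CPM, counts scaled to a common library size by edgeR's TMM method, and ± marks the SD of 3 replicates. E2F1 itself had 91.2 ± 9.43 CPM in pTRE, against 1811 ± 445 with WT, 1316 ± 187 with KK, and 1158 ± 196 with R109K (SD, n = 3). VIM was abundant (1150 to 1793 CPM over the 12 libraries), as were KRT8 and KRT18, while the osteoblast collagen COL1A2 was at or below 0.588 CPM and, for cells labelled epithelial, the keratin KRT19 was at or below 0.107 CPM and E-cadherin (CDH1) at or below 1.44 CPM.

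Because the arrays are best known from neurons, markers of other cell types were read beside them. The summed level of 7 neuronal markers was 166.5 to 197.2 CPM in pTRE, against 94.5 to 124.7 in WT, 103.9 to 129.9 in KK, and 123.9 to 138.5 in R109K. TUBB3, a tubulin of neurons and of many tumour lines, was the leading gene of that list in pTRE, with a mean of 104.4 CPM there and 32.7, 34.2, and 38.5 CPM in WT, KK, and R109K. RBFOX3, which encodes the neuronal protein NeuN, had means of 23.6 CPM in pTRE and 29.95, 37.1, and 52.0 CPM in the same order, and DCX, a marker of young neurons, was at 0 in 11 of the 12 libraries. The 7 osteosarcoma and mesenchymal markers summed to 6533 to 7823 CPM in pTRE and to 2518 to 3580 CPM in the E2F1 lines, with COL1A1 (mean 3557 CPM in pTRE) as the leading gene. The 5 epithelial markers summed to 744.4 to 918.8 CPM in pTRE and to 364.7 to 659.0 CPM in the E2F1 lines, with KRT8 at means of 503.2 CPM in pTRE and 238.0, 267.8, and 301.3 CPM in WT, KK, and R109K. The 3 endothelial markers summed to 2.24 to 2.89 CPM in pTRE and to 0.799 to 1.48 CPM in the E2F1 lines. That sum mostly follows VWF, with means of 2.5 CPM in pTRE and 0.787, 0.892, and 0.818 CPM in WT, KK, and R109K. CDH5 went the other way near the floor, from 0.0911 CPM to 0.319, 0.291, and 0.161 CPM. Glial markers summed to 8.06 to 8.89 CPM in pTRE and to 5.49 to 8.93 CPM in the E2F1 lines, with overlap in KK, and immune markers summed to at most 0.790 CPM in any library. The part of these markers in the protocadherin values was not tested. In bulk RNA, fewer cells that express a gene and less RNA in each cell cannot be told apart.

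A few genes carried most of the reads of each array. To compare genes, levels were divided by the length of the exons that belong to 1 gene alone, in kilobases, and averaged over the 12 libraries. In the PCDHB array, PCDHB5 stood at 7.66 CPM per kb, ahead of the pseudogene PCDHB17 (2.05), PCDHB8 (2.03), and PCDHB2 (1.75). Among PCDHA genes, PCDHA6 led with 3.36 CPM per kb, followed by PCDHAC2 (1.20), PCDHA7 (0.972), and PCDHA12 (0.918). PCDHGC3 led the PCDHG genes with 8.53 CPM per kb, ahead of PCDHGB4 (1.62), PCDHGB1 (0.861), and PCDHGB5 (0.729). PCDH7 had 3.64 CPM per kb and led the genes outside the clusters, before PCDH1 (1.09), PCDH17 (0.869), and PCDH9 (0.418). The leading gene took between 27.0% and 38.4% of the PCDHB reads, 23.7% and 31.7% of the PCDHA reads, and 44.1% and 61.6% of the PCDHG reads in single libraries. The lengths come from GENCODE and not from the authors' own annotation, and long isoforms lower the values of PCDHA4 and PCDHA10.

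The filter on low counts passed 57 of the 66 protocadherins, 49 of them clustered. The other 9 had few reads over the 12 libraries, namely PCDH10 (2), PCDH20 (2), PCDHGA3 (29), PCDHGA12 (30), PCDHB1 (37), PCDHGA7 (61), PCDHGA2 (65), PCDHA8 (68), and PCDH19 (75). PCDHB1, the first gene of its array, had 0 reads in all 3 pTRE libraries. It had 6, 1, and 8 reads in WT, 4, 0, and 8 in KK, and 4, 2, and 4 in R109K. A gene that passed the filter only because 1 line was high had to differ between lines, so the counts that follow are read against all 66 genes and against the share of all tested genes.

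Clustered protocadherin RNA was lower in all 3 E2F1 lines than in pTRE. The 55 clustered genes summed to 217.9, 204.3, and 222.5 CPM in the 3 pTRE libraries, to 117.8, 122.8, and 133.2 in WT, to 150.4, 100.3, and 119.3 in KK, and to 144.3, 110.3, and 133.5 in R109K. No library of an E2F1 line reached the lowest pTRE library. The mean was 214.9 ± 9.46 CPM in pTRE and 124.6 ± 7.86 in WT, 58.0% of the pTRE level, against 57.4% in KK and 60.2% in R109K (SD, n = 3). The sums are descriptions, and the tests that follow were made gene by gene.

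The decrease was unequal between the parts of the arrays. PCDHB genes summed to 122.6 ± 9.86 CPM in pTRE and to 53.8 ± 6.47 in WT, 58.87 ± 11 in KK, and 59.9 ± 8.17 in R109K, between 43.9% and 48.9% of the pTRE level. The sum of PCDHA1 to PCDHA13 was 33.2 ± 2.14 CPM in pTRE, against 18.1 ± 0.466 in WT, 17.9 ± 3.19 in KK, and 22.6 ± 2.06 in R109K. For both of these parts, every pTRE library lay above every E2F1 library. PCDHGA and PCDHGB genes summed to 25.7, 25.7, and 26.9 CPM in pTRE, to 16.5, 24.8, and 17.5 in WT, to 20.7, 11.04, and 14.96 in KK, and to 19.1, 13.4, and 18.8 in R109K. These were 75.2%, 59.7%, and 65.7% of the pTRE mean in WT, KK, and R109K, and here too all 9 libraries lay below pTRE, with WT replicate 2 close to it. The sum of the C-types was 33.1 ± 5.50 CPM in pTRE, beside 33.1 ± 3.14 in WT, 30.99 ± 7.39 in KK, and 29.7 ± 4.88 in R109K, with overlap between pTRE and each line. PCDHGC3 alone had a mean of 26.3 CPM in pTRE, so this sum mostly follows that gene. The other C-types moved in different directions, as given further on.

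**Figure D2:**
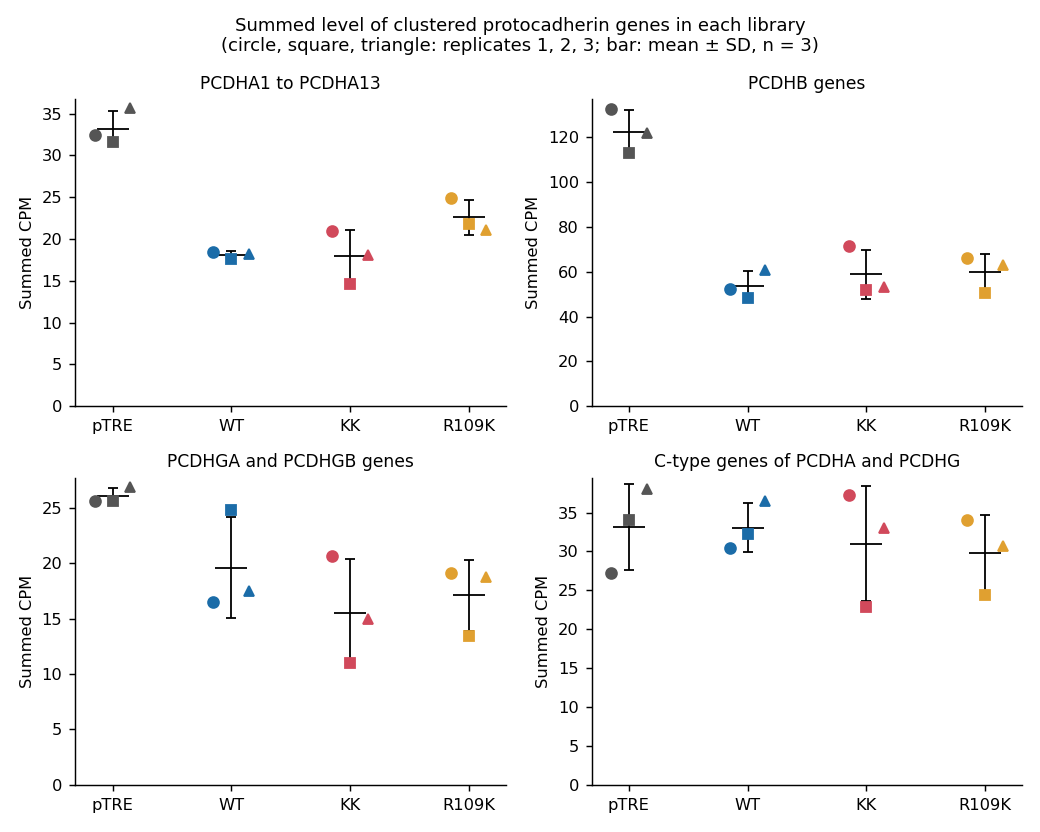
Summed CPM (y axes, from 0) of 4 groups of clustered protocadherins in each library of the pTRE, WT, KK, and R109K lines (x axes), with symbols for replicates 1, 2, and 3 and bars for the mean ± SD. PCDHA1 to PCDHA13 and PCDHB lie lower in all 9 libraries with E2F1, PCDHGA and PCDHGB lie lower with WT replicate 2 (24.8 CPM) close to pTRE, and the C-types overlap.

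Each gene was then tested with edgeR's quasi-likelihood test, and a gene was called at a Benjamini-Hochberg adjusted p under 0.01 and a change over 2-fold. In WT against pTRE, 16 protocadherins were called lower and 2 higher, while 3.93% of the 16625 genes tested were called lower and 7.89% higher. In KK, 14 were called lower and 3 higher, beside 3.90% and 7.01% of all genes. In R109K, 11 were called lower and 3 higher, beside 2.56% and 4.64% of all genes. Of the clustered genes, 15 of 55 were called lower in WT, 13 in KK, and 10 in R109K, and 0 were called higher in any of the 3 lines. The median log2 fold change of the 49 tested clustered genes was -0.74 in WT, -0.87 in KK, and -0.66 in R109K, beside 0.0022, -0.0091, and -0.0007 over all tested genes. Counted by libraries alone, 27 clustered genes had every WT library below every pTRE library (26.3% of all tested genes did), 32 in KK (24.5%), and 30 in R109K (22.9%).

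These counts depend on how a 2-fold change is required. When the test itself asked whether the change was greater than 2-fold (edgeR's glmTreat), 3 protocadherins were called in WT, PCDH1, PCDH9, and PCDH18, while 1 was called in KK, PCDH18, and 0 in R109K. In R109K, 8 of the 14 calls were kept whichever library was left out, and the count fell to 9 without R109K replicate 2, to 9 without R109K replicate 3, and to 8 without pTRE replicate 2.

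PCDHB genes gave the most calls. They were called lower for 9 of 18 genes in WT, 8 in KK, and 6 in R109K, and their median log2 fold changes were -1.17, -1.20, and -1.04. The 6 genes PCDHB5, PCDHB6, PCDHB11, PCDHB12, PCDHB13, and PCDHB14 were called in each of the 3 lines. Apart from PCDHB5 and PCDHB6, the genes called in more than 1 line formed an unbroken run along the array, from PCDHB10 to PCDHB14, which was noticed after the values were seen. The run is one of calls, and the decrease did not end with it. PCDHB18 and PCDHB15, the next genes along, had log2 fold changes of -0.88, -1.20, and -0.85 and of -1.05, -1.20, and -1.17 in WT, KK, and R109K. They had 628 and 305 reads over the 12 libraries, beside 562 for PCDHB10 and 1540 for PCDHB14.

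PCDHB5, the leading gene of the array (chr5:140514788-140518197, a single exon), had the largest decrease in CPM of the clustered genes. It stood at 47.9, 43.1, and 46.9 CPM in the pTRE libraries, 19.6, 13.0, and 22.1 in WT, 24.1, 19.7, and 17.1 in KK, and 20.8, 17.9, and 21.2 in R109K. All 9 libraries with E2F1 lay well under the lowest pTRE library. The log2 fold change was -1.32 (SE 0.17, adjusted p = 2.7e-05) in WT, -1.18 (SE 0.17, adjusted p = 7.3e-05) in KK, and -1.20 (SE 0.17, adjusted p = 9.6e-05) in R109K.

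PCDHB14 had 12.9, 8.02, and 9.51 CPM in pTRE. It had 3.17, 2.73, and 3.36 CPM in WT, 4.048, 2.497, and 3.0 in KK, and 3.95, 2.73, and 4.14 in R109K. The groups did not overlap, and the log2 fold changes were -1.70, -1.66, and -1.49 (SE 0.23 in each). PCDHB12 stood at 8.59, 7.11, and 7.93 CPM in pTRE and between 1.97 and 3.84 CPM in the 9 libraries with E2F1, with log2 fold changes of -1.62 in WT, -1.45 in KK, and -1.38 in R109K. PCDHB11 went from 8.59, 6.50, and 7.35 CPM in pTRE to between 1.58 and 3.37 CPM, a change of -1.73 in WT and KK and -1.41 in R109K on the log2 scale. These 3 neighbours and PCDHB5 and PCDHB6 kept their calls in all 3 lines whichever library was left out.

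The remaining PCDHB genes followed with a range of changes. PCDHB6 had log2 fold changes of -1.47 in WT, -1.31 in KK, and -1.502 in R109K. PCDHB13 had -1.20, -1.21, and -1.04 in the same order, and its call in R109K was lost without either of R109K replicates 1 and 2 or of pTRE replicates 1 and 2, and that in WT without WT replicate 1 or pTRE replicate 1. PCDHB10 was called in WT (-1.49, lost without WT replicate 1 or pTRE replicate 1) and KK (-1.64) and had -1.10 in R109K (adjusted p = 0.014). PCDHB4 was called in WT at -1.28, beside -0.62 in KK and -0.64 in R109K. PCDHB9 at -1.07 in WT and the pseudogene PCDHB18 at -1.20 in KK were each called in 1 line and kept the call in 1 of 6 fits that left out a library. PCDHB2, PCDHB8, and PCDHB17, among the 4 highest genes of the array per kb, were not called. Their log2 fold changes lay between -0.91 and -0.39 over the 3 lines. PCDHB2 still had an adjusted p of 0.00036 in WT, 0.00049 in KK, and 0.0053 in R109K. Every library with E2F1 was below every pTRE library for that gene. For PCDHB17 the adjusted p was 0.0054 in WT, for PCDHB8 0.0076 in R109K, and both lay above 0.01 in the other lines. PCDHB16 lay at -0.40, -0.14, and -0.47, although its promoter carries the same GTGGCGCT string, and PCDHB7 at 0.18, 0.85, and -0.15. A call in 1 line and not in another is not a tested difference between those lines.

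**Figure D3:**
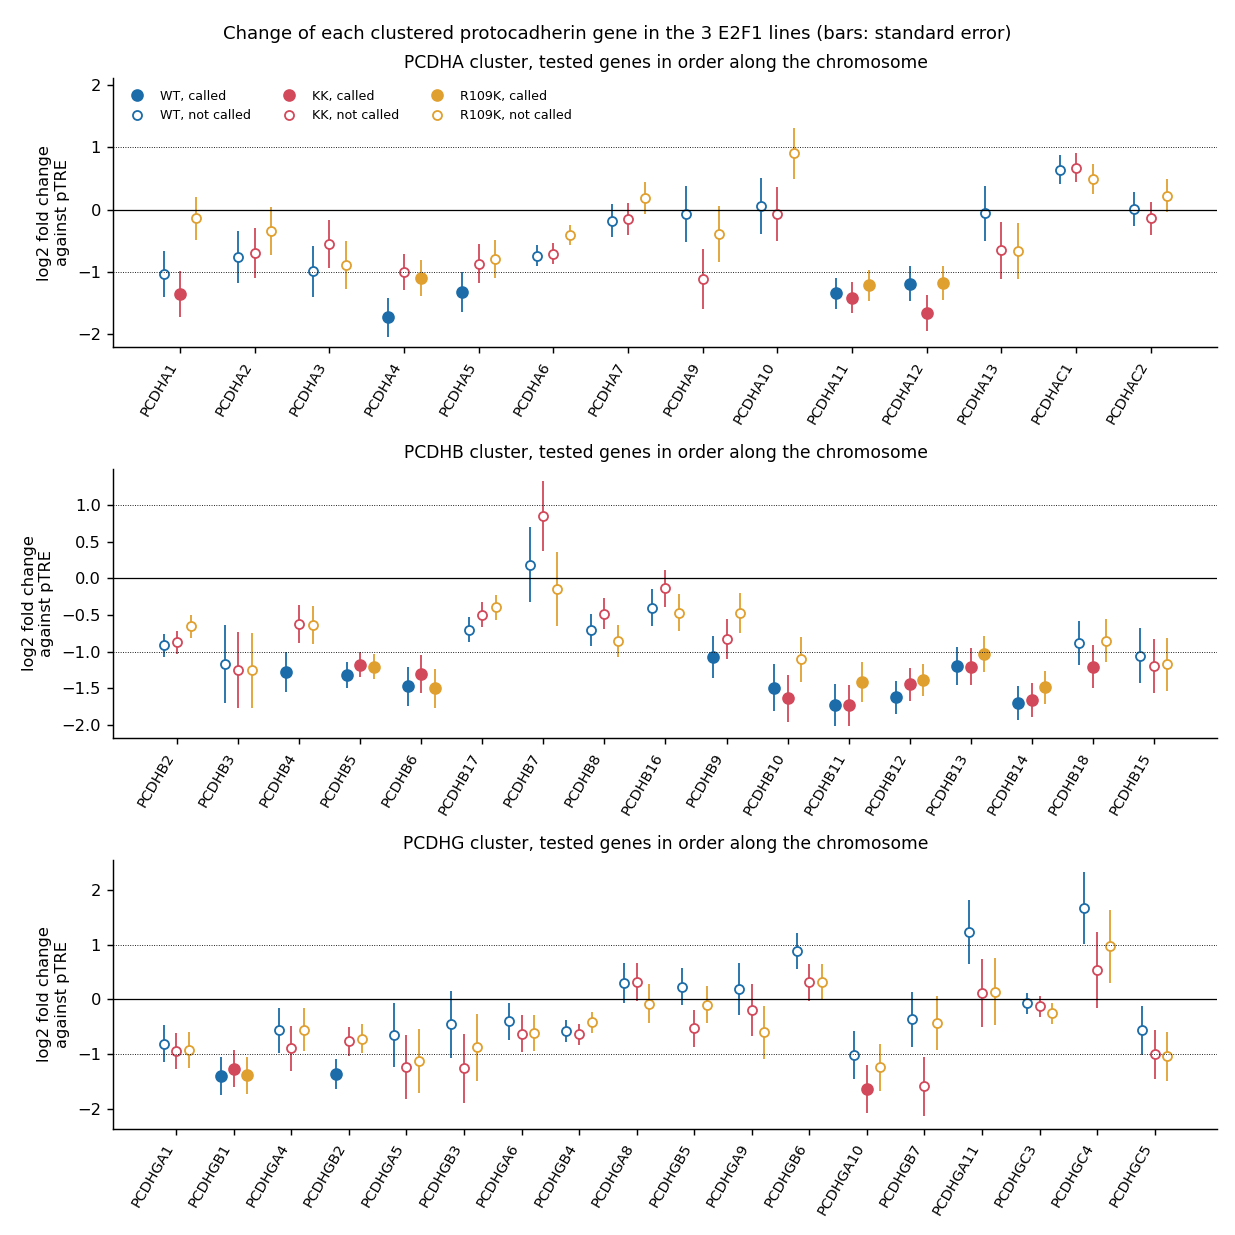
log2 fold change against pTRE (y axes) of the 49 tested clustered genes in their order along chromosome 5 (x axes), for WT (blue), KK (red), and R109K (yellow). Filled points were called, bars are standard errors, and dotted lines mark a 2-fold change. The filled points gather in PCDHB5, PCDHB6, and PCDHB10 to PCDHB14 and at the PCDHA11 and PCDHA12 genes, and the C-types at the right of the PCDHA and PCDHG panels have none.

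In the PCDHA array, PCDHA11 and PCDHA12 were called in all 3 lines. PCDHA11 stood at 4.30, 5.02, and 4.56 CPM in pTRE, 1.496, 2.168, and 1.879 in WT, 1.80, 1.15, and 2.21 in KK, and 2.33, 1.85, and 1.76 in R109K. Its groups did not overlap, and its log2 fold changes were -1.34, -1.41, and -1.22 in WT, KK, and R109K. PCDHA12 had 3.68, 4.37, and 4.96 CPM in pTRE and between 0.816 and 2.42 CPM with E2F1, with log2 fold changes of -1.18, -1.66, and -1.18. The R109K call of PCDHA11 was lost without R109K replicate 3 or pTRE replicate 2. That of PCDHA12 was kept in 1 of 6 such fits in R109K and in 3 of 6 in WT, where WT replicate 3 and pTRE replicates 2 and 3 each mattered.

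PCDHA4 fell by 1.73 in WT on the log2 scale, from 2.07, 3.00, and 2.90 CPM in pTRE to 0.677, 0.723, and 0.976 CPM, and kept that call in every fit that left out a library. In R109K its call at -1.10 was lost without any 1 of the 6 libraries, and in KK it had -1.002 (adjusted p = 0.013). Of the 3 lines, PCDHA5 was called in WT alone at -1.32, kept in 2 of 6 such fits, beside -0.87 in KK and -0.80 in R109K. PCDHA1 was called in KK alone at -1.35, kept in 1 of 6, beside -1.04 in WT and -0.14 in R109K.

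PCDHA6, the most abundant PCDHA gene (chr5:140207563-140391929), did not pass the 2-fold threshold. It stood at 11.1, 10.3, and 12.8 CPM in pTRE, 6.91, 5.62, and 7.70 in WT, 7.96, 5.95, and 6.95 in KK, and 9.79, 7.38, and 8.60 in R109K. Every pTRE library was above every library with E2F1. The log2 fold change was -0.74 in WT (SE 0.17, adjusted p = 0.0027), -0.71 in KK (SE 0.17, adjusted p = 0.0036), and -0.41 in R109K (SE 0.16, adjusted p = 0.079). PCDHA7, the next gene along the array, had -0.18, -0.15, and 0.19, with overlapping groups. The remaining PCDHA genes were sparse, and PCDHA10 had the highest value among them, 0.90 in R109K (adjusted p = 0.12).

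PCDHG genes gave few calls. PCDHGB1 was called in all 3 lines, from 3.72, 3.76, and 4.89 CPM in pTRE to 1.07, 1.53, and 2.06 in WT, 2.60, 0.768, and 1.70 in KK, and 1.56, 1.45, and 1.72 in R109K. The groups did not overlap, with log2 fold changes of -1.41, -1.26, and -1.39, but adjusted p lay between 0.0049 and 0.0086. The call was kept in 2 of 6 fits without a library in WT, 1 of 6 in KK, and 0 of 6 in R109K. PCDHGB2 fell by 1.36 in WT on the log2 scale and kept the call in every such fit, beside -0.77 in KK and -0.72 in R109K. PCDHGA10 was called in KK at -1.64, and that call was lost without any 1 of the 6 libraries. PCDHGB4, second in level in the array, had -0.57, -0.64, and -0.42, and PCDHGB5 had 0.23, -0.53, and -0.10, neither of them called.

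**Figure D4:**
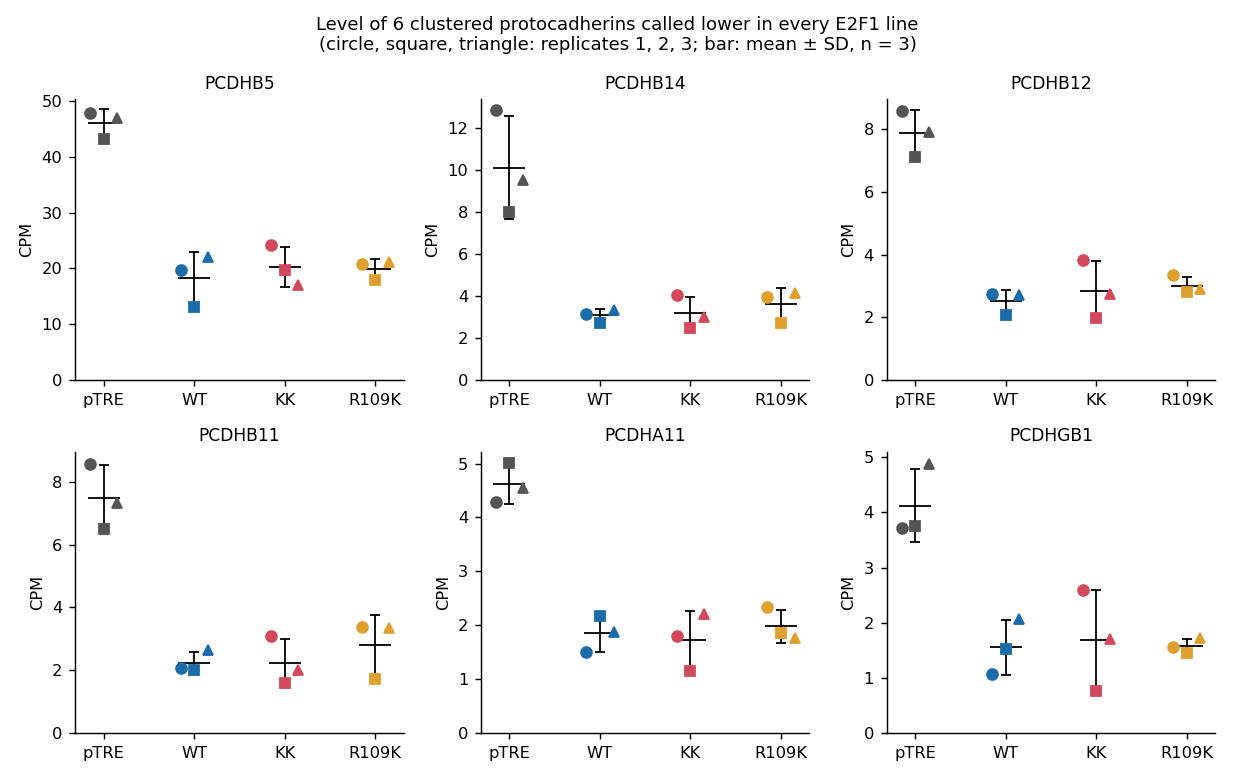
CPM (y axes, from 0) of PCDHB5, PCDHB14, PCDHB12, PCDHB11, PCDHA11, and PCDHGB1 in each library of the 4 lines (x axes), with symbols for replicates 1, 2, and 3 and bars for the mean ± SD. In each panel all 3 pTRE libraries lie above all 9 libraries with E2F1, for example at 43.1 to 47.9 CPM against 13.0 to 24.1 CPM for PCDHB5.

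None of the 5 C-type genes was called in any line, and their median log2 fold change was 0.01 in WT, -0.13 in KK, and 0.22 in R109K. PCDHGC3 was the most abundant clustered gene per kb as a mean over the 12 libraries. In pTRE, PCDHB5 was higher, at 13.5 CPM per kb against 9.22. PCDHGC3 (chr5:140855514-140892544) stood at 21.1, 27.4, and 30.5 CPM in pTRE, 24.2, 22.65, and 28.04 in WT, 29.3, 17.6, and 25.2 in KK, and 26.06, 18.02, and 21.99 in R109K. These values overlapped throughout, and the log2 fold changes were -0.07, -0.13, and -0.26 (SE 0.19 in each). PCDHAC1 leaned the other way, with 1.90, 1.60, and 1.80 CPM in pTRE and 2.60, 2.49, and 3.11 in WT, a log2 fold change of 0.64 (adjusted p = 0.041), and 0.67 in KK (adjusted p = 0.035). PCDHAC2 had 0.01, -0.14, and 0.22. PCDHGC5 had -0.56 in WT, -1.001 in KK (adjusted p = 0.094), and -1.04 in R109K (adjusted p = 0.097), with every KK and R109K library below every pTRE library. In WT, replicate 2 stood at 1.77 CPM and the other libraries at 0.6055 and 0.434, beside 0.909 to 1.44 CPM in pTRE. PCDHGC4 had 1.66 in WT (SE 0.66, adjusted p = 0.056), where WT replicate 2 stood at 1.61 CPM and the other WT libraries at 0.463 and 0.506. Between 10 and 15 of the other 44 tested clustered genes were called in each line, and the difference between these groups of genes was not tested.

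Protocadherins outside the clusters moved both ways. PCDH18, a delta protocadherin that binds the adaptor protein Dab1 (chr4:138440072-138453648, minus strand), had the largest decrease of the tested protocadherins on the log2 scale. It stood at 6.53, 5.85, and 6.43 CPM in pTRE, 1.18, 0.482, and 1.23 in WT, 0.934, 0.480, and 0.513 in KK, and 1.52, 1.34, and 2.01 in R109K. The pTRE libraries lay far above all others. The log2 fold change was -2.61 (SE 0.31, adjusted p = 9.8e-06) in WT, -3.25 (SE 0.32, adjusted p = 1.8e-06) in KK, and -1.95 (SE 0.29, adjusted p = 0.00014) in R109K, and each call was kept whichever library was left out.

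PCDH9 and PCDH1, delta protocadherins as well, rose in all 3 lines. PCDH9 (chr13:66876966-67804577, minus strand) stood at 5.58, 6.31, and 4.41 CPM in pTRE, 20.8, 15.3, and 16.9 in WT, 17.8, 11.7, and 17.6 in KK, and 13.5, 10.4, and 13.8 in R109K. Its log2 fold changes were 1.71, 1.54, and 1.21 (SE 0.20 in each), and no library with E2F1 came down to the pTRE range. PCDH1, known from airway epithelium (chr5:141232655-141258811, minus strand, beyond the clustered arrays), had 2.27, 2.09, and 3.20 CPM in pTRE, 7.41, 7.39, and 8.31 in WT, 6.71, 6.72, and 7.74 in KK, and 6.61, 5.81, and 6.59 in R109K. The log2 fold changes were 1.61, 1.48, and 1.33 (SE 0.18 in each). Both genes kept their calls in all 3 lines without any 1 library.

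PCDH8, known from synapses, where activity raises it and it draws N-cadherin off the surface, was called higher in KK (log2 fold change 1.33, adjusted p = 0.0031) and R109K (1.19, adjusted p = 0.0086). In WT it had 1.05 (adjusted p = 0.015). It stood at 0.702, 0.760, and 1.51 CPM in pTRE and between 1.93 and 3.22 CPM in the 9 libraries with E2F1, without overlap. The KK call was lost without KK replicate 2, pTRE replicate 1, or pTRE replicate 2, and the R109K call was kept in 1 of 6 fits.

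The remaining genes outside the clusters were not called. PCDH7, the most abundant of them and a delta protocadherin that binds the SET protein, had 35.2, 43.5, and 42.5 CPM in pTRE and between 31.6 and 49.7 CPM with E2F1, with log2 fold changes of 0.07, -0.28, and 0.17. PCDH17, a synaptic protocadherin that recruits actin regulators, had -0.58 in WT (adjusted p = 0.011), where no library reached the pTRE range, and -0.17 in KK and 0.14 in R109K. PCDH12, a protocadherin of endothelial junctions, had 0.48, 0.40, and 0.01, and PCDH15, which forms the tip links of hair cells, 0.67, -0.21, and 0.36. The 11 genes outside the clusters summed to 65.7 ± 3.79 CPM in pTRE, and to 79.4 ± 4.06 in WT, 68.8 ± 5.07 in KK, and 79.4 ± 7.01 in R109K.

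**Figure D5:**
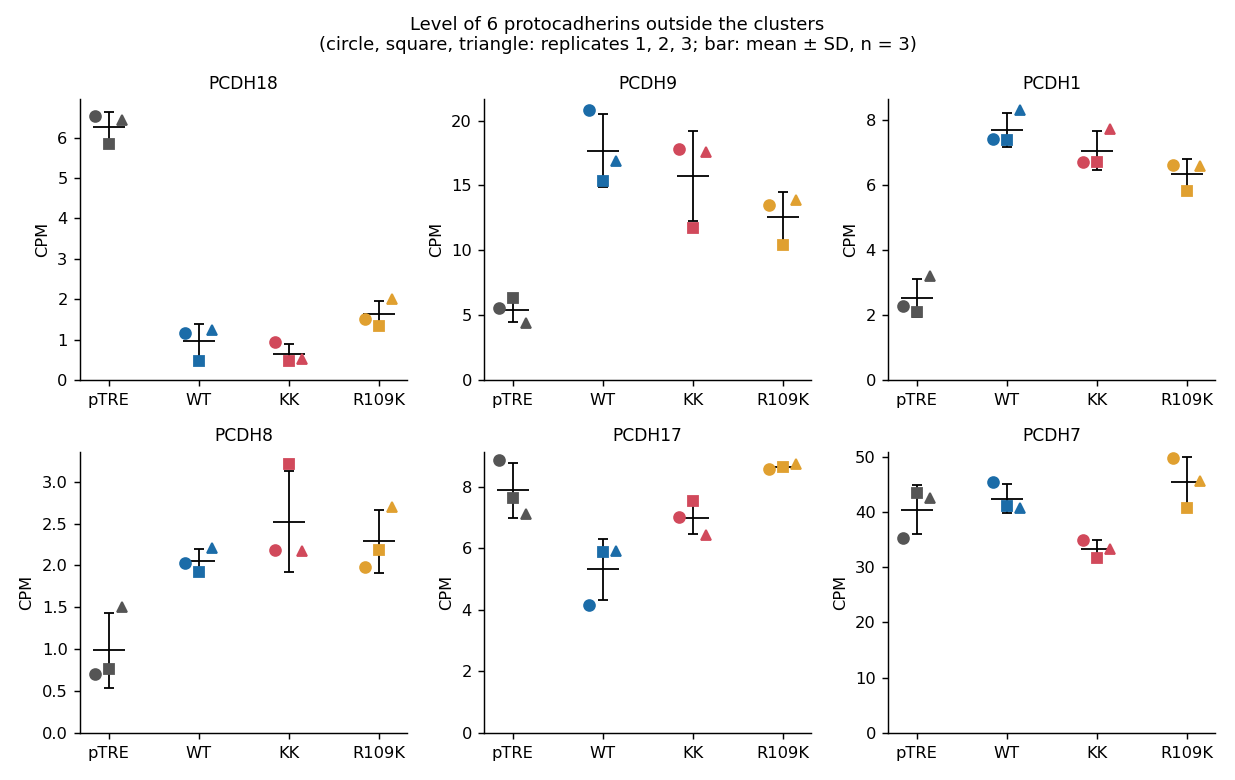
CPM (y axes, from 0) of PCDH18, PCDH9, PCDH1, PCDH8, PCDH17, and PCDH7 in each library of the 4 lines (x axes), with symbols for replicates 1, 2, and 3 and bars for the mean ± SD. PCDH18 is high in pTRE alone (5.85 to 6.53 CPM), PCDH9, PCDH1, and PCDH8 are low in pTRE, PCDH17 is lowest in WT (4.17 to 5.93 CPM), and PCDH7 changes little.

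The direct comparisons set the 3 E2F1 lines against each other. With 1 line for each construct, they cannot single out the methylation sites. No protocadherin was called in R109K against WT, in KK against WT, or in R109K against KK, beside 0.343%, 0.00602%, and 0.0902% of all tested genes, and DESeq2 called 0 in each as well. With so few calls over all genes, their absence among 57 protocadherins says little. An unadjusted p under 0.05 was reached by 5 protocadherins in R109K against WT, 6 in KK against WT, and 4 in R109K against KK, of 57 tested. Over all tested genes the same threshold was passed by 22.3%, 8.51%, and 12.4%. The share of protocadherins was thus below that of all genes in both comparisons with R109K and close to it in KK against WT. The lowest adjusted p belonged to PCDH17 in R109K against WT (0.028), where its log2 fold change was 0.71 (SE 0.16). Its 3 R109K libraries, at 8.59 to 8.72 CPM, all lay above the WT libraries, at 4.17 to 5.93 CPM. PCDH18 was 1.30 higher in R109K than in KK on the log2 scale (SE 0.33, adjusted p = 0.075), with no overlap of the libraries. PCDH9 had -0.50 in R109K against WT (SE 0.19, adjusted p = 0.15), and PCDHA1 had 0.90 (SE 0.37, adjusted p = 0.17). E2F1 itself was less abundant on average in KK and R109K than in WT, as given above, and the part of that difference in these values was not tested.

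Genes in and beside the arrays were read to place the decrease along the chromosome. Of 17 such genes, 16 were tested, none was called lower in any E2F1 line, and CD14, a coreceptor for bacterial lipopolysaccharide, was called higher in WT (log2 fold change 1.56, adjusted p = 0.0068). TAF7, a general transcription factor gene that lies between the PCDHB and PCDHG arrays, had -0.25, -0.12, and -0.01 in WT, KK, and R109K. DIAPH1, an actin-nucleating formin gene next to the PCDHG array, had 0.83, 0.74, and 0.60 on the log2 scale, each with an adjusted p under 0.01 and a change below 2-fold. On the same terms, HARS2, the mitochondrial histidyl-tRNA synthetase gene, had -0.58 in WT (adjusted p = 0.0024) and -0.58 in KK (adjusted p = 0.0023), and DND1, a germ cell RNA-binding protein gene, had -0.497 in WT (adjusted p = 0.0048). The median log2 fold change of the 16 genes was -0.26, -0.20, and -0.12.

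Regulators of clustered protocadherin choice were read in the same way. Of 25 genes listed, 24 were tested, and the 1 called was SMCHD1, a chromatin protein known to keep clustered protocadherins silent, at a log2 fold change of 1.10 in WT (adjusted p = 0.00030). Its level was 272.6 ± 29.0 CPM in pTRE, against 584.8 ± 72.7 in WT, 471.8 ± 121 in KK, and 435.0 ± 83.2 in R109K, and the log2 fold changes in KK and R109K were 0.79 (adjusted p = 0.0037) and 0.67 (adjusted p = 0.013). CTCF, which binds the CGCT box, had 0.27, 0.29, and 0.32. DNMT3B, a DNA methyltransferase that acts on these promoters in the embryo, had -0.53 in WT (adjusted p = 0.0087), -0.94 in KK (adjusted p = 0.00013), and -0.44 in R109K (adjusted p = 0.033). The part of these regulators in the protocadherin values was not tested.

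Among 20 partner and signalling genes, NLGN1, which encodes the postsynaptic adhesion protein neuroligin 1, was called higher in all 3 lines (1.54, 1.77, and 1.38 on the log2 scale), and the other 19 were not called. Of 47 other cadherin genes, 34 were tested. In WT, 3 were called higher (CDH4, CDH7, CDHR5) and 2 lower (CDH15, CLSTN3), and CDHR5 had an SD above its mean there (6.598 ± 8.476 CPM). In KK, 3 were called higher (CDH4, CDH7, CLSTN2) and 3 lower (CDH2, CDH15, CLSTN3), and in R109K 1 was called higher (CDH7) and 1 lower (CLSTN3). The median log2 fold change of these cadherins was -0.13, -0.16, and -0.13, beside -0.74, -0.87, and -0.66 for the clustered protocadherins. CDH2, the N-cadherin that delta protocadherins associate with, stood at 191.4 ± 4.10 CPM in pTRE and at 106.4 ± 21.2 in WT, 94.2 ± 12.03 in KK, and 126.6 ± 8.73 in R109K, with log2 fold changes of -0.84, -1.02, and -0.60.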

How the data were processed

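Total RNA of 12 samples was enriched for poly(A) and sequenced from directional libraries on an Illumina NextSeq. Per the labels and methods, the authors trimmed reads with Trim Galore 0.4.3, aligned them to hg19 with STAR 2.5.1, and deposited raw counts of reads for 25369 gene symbols with 5 summary lines, which stayed out of library sizes. The annotation and the strand setting of the counting are not given in the sources used here. Uniquely assigned reads were counted, so reads on exons shared by clustered genes, and reads that map to more than 1 place, are missing from the values.

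The count models were fitted in R 4.3.3 by edgeR 4.0.16 (TMM, filterByExpr, 1 mean per line, quasi-likelihood test over 16625 genes and all 12 libraries, Benjamini-Hochberg adjustment). The script was tested on simulated data. Alternatives used DESeq2 1.42.0, RLE normalization, no filter or at least 10 counts in every library, the 6 libraries compared, the replicate number as a block, glmTreat, an adjusted p under 0.05, and each library left out. Positions and lengths came from GENCODE release 44 on GRCh37. Promoters came from RefSeq on GRCh38.p14, and the builds were not mixed. Tables and plots used Python 3.11.15, numpy 2.4.6, pandas 2.3.3, and matplotlib 3.10.9.

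Depth was 11500537 to 31040903 reads on genes, and counts of low genes carry large counting errors. Named with values are protocadherins called in any comparison and the 4 highest per kb in each array and outside the arrays, and a few others chosen after their values were seen. The members and lists were chosen with earlier results of these data known. Replicates are biological by the labels, and whether they were grown at separate times is not stated.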

Additional observations from a re-analysis of the deposited data

How the results depend on the processing

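The counts of protocadherins called against pTRE (18 in WT, 17 in KK, 14 in R109K) stayed within 1.5 times under DESeq2 (19, 16, and 15), RLE normalization (18, 16, and 14), no filter (19, 16, and 13), at least 10 counts in every library (14, 13, and 12), the 6 libraries compared (16, 17, and 17), and an adjusted p under 0.05 (21, 20, and 17). With glmTreat against 2-fold they were 3, 1, and 0, since that test asks for a change beyond 2-fold. Leaving out 1 library gave 13 to 19 in WT, 12 to 17 in KK, and 8 to 11 in R109K, with the R109K count at 9 without R109K replicate 2 or 3 and at 8 without pTRE replicate 2. Without WT replicate 2, the library with the most reads outside genes, 19 were called in WT and all 18 calls were kept. The direct comparisons gave 0 under glmTreat and in every fit that left out a library. Of the 49 calls of single genes, 48 were kept under DESeq2, 48 under RLE normalization, 47 with no filter, and 47 with the 6 libraries compared, and 39 were kept among those with at least 10 counts in every library, and no direction reversed. Libraries with the same replicate number deviated together in some pairs and not on average. Over 18 pairs of such libraries, deviations from the line means correlated at -0.29 to 0.47 (mean 0.044), with 5 over 0.1. With the number as a replicate block, 18, 16, and 14 were called, and 47 of the 49 calls were kept. The 9 protocadherins with few reads were not tested, and the calls of PCDHGA10 in KK and of PCDHA4 and PCDHGB1 in R109K were lost without any 1 library.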
